A study of Saccharomyces cerevisiae with 12 samples.

Results

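Purine salvage lets budding yeast, Saccharomyces cerevisiae, make nucleotides from bases and nucleosides taken from the medium or released inside the cell, while a small set of kinases and a deaminase exchange AMP, ADP, ATP and IMP with each other. Transcript levels of 10 genes with these roles were examined in RNA sequencing counts from 12 yeast cultures. The genes were chosen by systematic name for their function: FCY2 (YER056C), APT1 (YML022W), HPT1 (YDR399W), AAH1 (YNL141W), PNP1 (YLR209C), ADO1 (YJR105W), ADK1 (YDR226W), ADK2 (YER170W), YNK1 (YKL067W) and AMD1 (YML035C). All 10 were among the 7127 features of the count table, and all 10 passed the filter on low counts, which 6157 features passed.

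The study set a strain that imports ATP against a strain that does not. Its groups were the NTT1 strain with 5 mM ATP in the medium for 1 h, the NTT1 strain without ATP, wild type (WT) with the same ATP treatment, and WT without ATP, with 3 biological replicates in each. The time recorded was 1 h for all treated cultures and 0 h for all untreated ones. Whether untreated cultures were held for the same hour is not clear from this record. Comparisons of treated with untreated cultures therefore cover ATP and the recorded hour together. NTT1 is a nucleotide transporter of the microsporidian parasite Encephalitozoon cuniculi. In the labels the NTT1 strain has PH-NTT1 integrated in the genome of the BY29034 background and also carries the QUEEN reporter, an ATP sensor, whereas WT carries an empty vector. Strain comparisons therefore cover transporter and reporter together. The labels give the 6 WT cultures 6 different cell line names and the 6 NTT1 cultures a single one. All cultures were harvested at mid-log phase from a complete synthetic medium. Strain identity rests on the labels, since transcripts of the transporter and the reporter were not analysed here.

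The pathway works as follows. Fcy2 is the plasma membrane permease for adenine, guanine, hypoxanthine and cytosine. Apt1 joins adenine to phosphoribosyl pyrophosphate (PRPP) to give AMP, and Hpt1 does the same with hypoxanthine and guanine to give IMP and GMP. Aah1 deaminates adenine to hypoxanthine, and Pnp1 splits inosine and guanosine into base and ribose phosphate. Ado1 phosphorylates adenosine to AMP. Adk1, the main adenylate kinase, and Adk2, its mitochondrial relative, pass phosphate between adenine nucleotides, using GTP in the case of Adk2. Ynk1 is the nucleoside diphosphate kinase, and Amd1 deaminates AMP to IMP.

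The upstream sequences of 4 of these genes are given first. AMD1 and FCY2 are the genes that passed the test for ATP, and APT1 and AAH1 are the pair whose levels followed each other most closely from library to library. Each is the stretch of 300 bases directly before the start codon, read 5′ to 3′ on the strand of the gene from the RefSeq genome R64. It lies at chrXIII:208861-209160 (minus strand) for AMD1, chrV:268114-268413 (minus strand) for FCY2, chrXIII:228637-228936 (plus strand) for APT1 and chrXIV:359296-359595 (plus strand) for AAH1. Capitals mark matches, on either strand, to TGACTC, the core bound by Bas1 and Gcn4, or to AGGGG, the stress response element bound by Msn2 and Msn4.
AMD1: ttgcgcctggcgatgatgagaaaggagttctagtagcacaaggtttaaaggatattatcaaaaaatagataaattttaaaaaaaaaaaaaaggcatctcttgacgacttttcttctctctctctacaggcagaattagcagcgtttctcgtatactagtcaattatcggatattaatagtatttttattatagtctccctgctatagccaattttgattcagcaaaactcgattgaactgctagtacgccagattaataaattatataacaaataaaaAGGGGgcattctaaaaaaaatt
FCY2: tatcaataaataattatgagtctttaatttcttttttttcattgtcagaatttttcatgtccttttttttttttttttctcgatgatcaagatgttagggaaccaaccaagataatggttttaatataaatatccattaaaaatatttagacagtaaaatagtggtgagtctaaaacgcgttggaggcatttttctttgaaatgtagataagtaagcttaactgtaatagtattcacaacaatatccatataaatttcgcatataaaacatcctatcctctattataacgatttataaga
APT1: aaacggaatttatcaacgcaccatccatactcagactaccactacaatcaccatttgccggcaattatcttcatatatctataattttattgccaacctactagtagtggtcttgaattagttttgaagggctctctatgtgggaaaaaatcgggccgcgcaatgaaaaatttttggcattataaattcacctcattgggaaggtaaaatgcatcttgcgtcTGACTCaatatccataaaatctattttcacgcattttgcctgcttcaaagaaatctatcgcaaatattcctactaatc
AAH1: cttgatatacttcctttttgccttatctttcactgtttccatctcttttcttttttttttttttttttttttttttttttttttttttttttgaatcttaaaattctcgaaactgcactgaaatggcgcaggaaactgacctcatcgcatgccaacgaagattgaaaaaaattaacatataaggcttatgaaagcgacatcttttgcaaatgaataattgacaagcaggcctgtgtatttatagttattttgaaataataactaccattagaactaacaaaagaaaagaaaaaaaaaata

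TGACTC was found in 2 of the 10 upstream windows, those of APT1 and ADK2, against 7.74% of 6020 windows of the same length before all protein-coding genes of the annotation. In APT1 the match ended 73 bases before the start codon. AGGGG was found in 2 windows, those of HPT1 and AMD1, against 22.2% of all windows. In AMD1 it ended 18 bases before the start codon. No window of the 10 held both motifs, and a match is a description of the letters only.

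All 10 genes have a single coding segment, and 0 of them overlapped another gene of the annotation. FCY2 lies on chromosome V from 266512 to 268113, and AMD1 on chromosome XIII from 206428 to 208860, both on the minus strand. Stretches of 50 bases were looked up across the genome to see whether reads of a gene could belong to a copy. For 9 genes 0% of such stretches occurred elsewhere. For FCY2, 103 of 1553 stretches (6.63%) also occurred in FCY22, a neighbouring gene of the same permease family. FCY22 averaged at most 23.7 CPM in any group, against at least 442 CPM for FCY2. The count table also lists YKL066W, numbered next to YNK1 and not placed by the annotation used here, with 5424 counts in all against 39422 for YNK1. Whether the features overlap was not tested.

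Library totals ran from 14845855 to 20714804 counts. Levels are given as CPM, counts scaled to a common library size with TMM factors. CPM are shares of the RNA sequenced, so the amount of RNA per cell was not measured. The 3 WT libraries without ATP were less alike than those of the other groups. Across genes, which are not replicates, Pearson's r of log2 CPM was 0.977 to 0.989 between them and 0.992 to 0.996 within the other groups. On the first principal component (47% of variance) WT replicate 3 without ATP lay at 1.81, and replicates 1 and 2 at -21.5 and -25.5. On the second (15.2%) replicate 2 lay apart, at -15.9, with replicates 1 and 3 at 7.41 and 9.47. Results that rest on WT replicate 3 without ATP are given with and without it. That library was singled out from these same data, so p-values of the fit without it are descriptive only. Averaged over strains, 1489 genes passed for ATP with all libraries, 2469 without it and 1232 without WT replicate 2 lacking ATP.

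The levels of the 10 genes spanned a wide range. Per kilobase of coding length, ADK1 was the highest in every library, with a median of 1350 CPM per kb over the 12 libraries (range 1230 to 1450). ADO1 followed at a median of 771 CPM per kb, then HPT1 at 638, YNK1 at 407, FCY2 at 399, APT1 at 287 and AAH1 at 174. PNP1 had a median of 81.7 CPM per kb, AMD1 of 49.8 and ADK2 of 36.2. The ranges of ADO1 and HPT1 overlapped, as did those of YNK1 and FCY2, of FCY2 and APT1, and of APT1 and AAH1. PNP1, AMD1 and ADK2 were each separate from the gene above them in every library. The main and the mitochondrial adenylate kinase stood at opposite ends of the order.

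**Figure D1:**
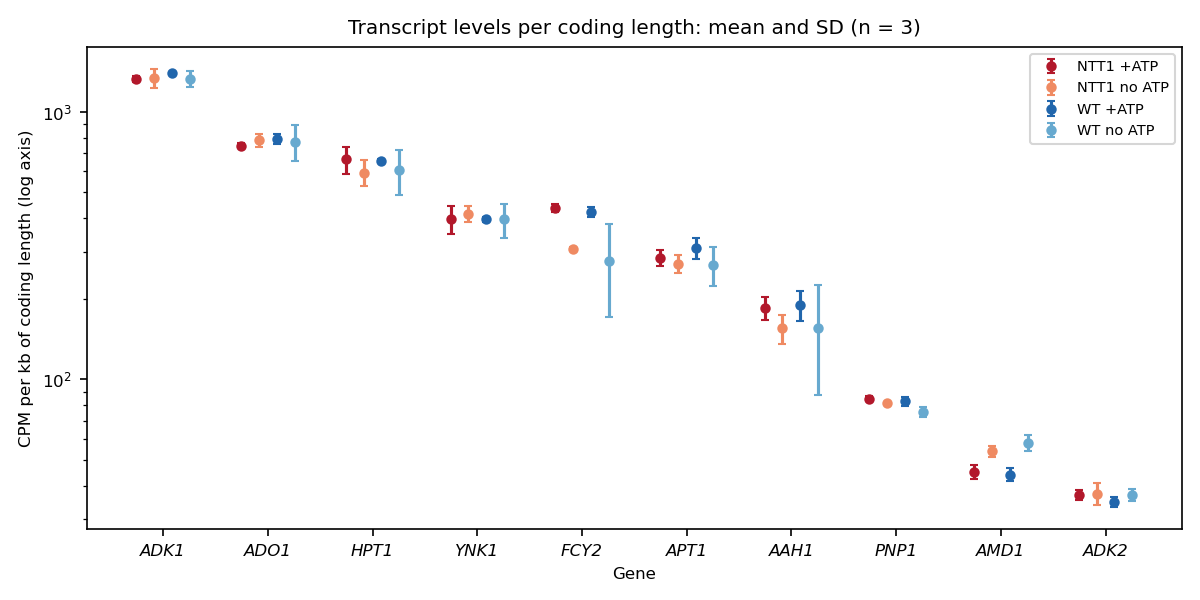
Mean CPM per kb of coding length (log axis) for each gene in the 4 groups, with SD over 3 replicates. ADK1 lies at the top and ADK2 at the bottom in every group, and the groups of a gene lie close together except for FCY2 and AMD1.

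The first question was how these transcripts differed between cultures with and without extracellular ATP. FCY2, the base permease, was higher with ATP, and AMD1, the AMP deaminase, was lower, in both strains. The effect averaged over the strains was 1.48-fold for FCY2 and 0.80-fold for AMD1. The other 8 genes, those of the phosphoribosyltransferases, the adenine deaminase, the phosphorylase and the kinases, did not pass the test. Differences were tested with edgeR's quasi-likelihood test across all 6157 genes in 1 fit of the 12 libraries, with Benjamini-Hochberg adjusted p-values and a threshold of 0.05. Averaged over strains, 2 of 10 genes passed, 1 higher and 1 lower, against 24.2% of all genes tested, and DESeq2 called the same 2 genes (27% of all genes). In the NTT1 strain 0 of 10 passed by edgeR (4.47% of all genes), 2 had an unadjusted p under 0.05 (21.7% of all genes), and DESeq2 called 1, AMD1 (9.52% of all genes). In WT 1 of 10 passed by edgeR (12.7% of all genes), 3 had an unadjusted p under 0.05 (30% of all genes), and DESeq2 called 2, AMD1 and FCY2 (18.2% of all genes). For edgeR's adjusted calls the share of the members was below that of all genes in each of these comparisons. With 10 genes such a difference can rest on 1 gene, and it was not tested. The comparisons also share libraries.

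**Figure D2:**
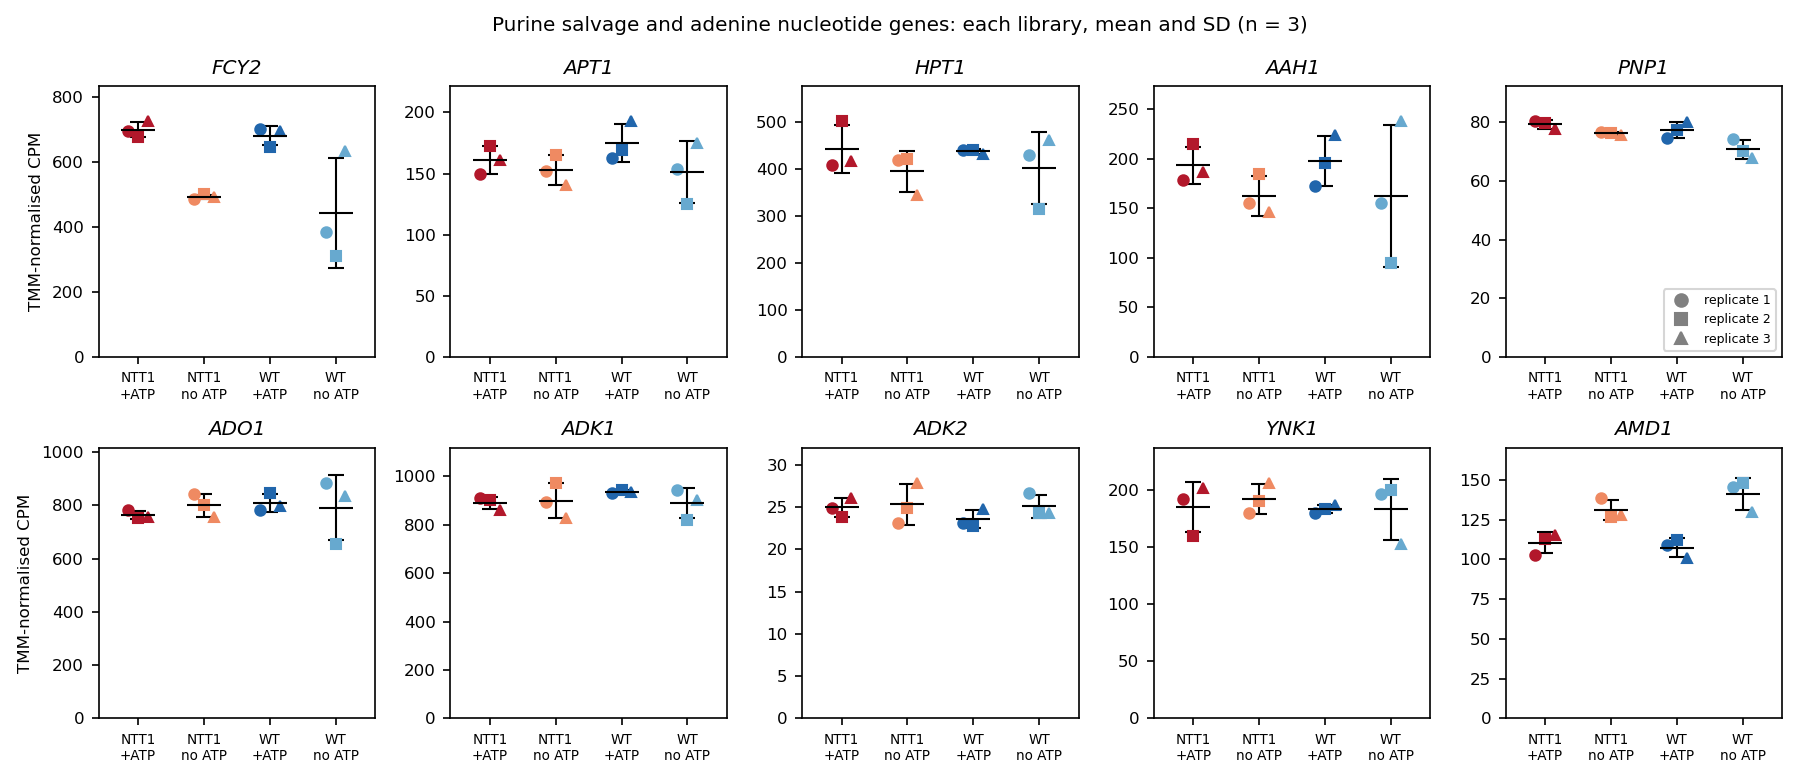
TMM-normalised CPM of each gene in each library, with mean and SD (n = 3) in each group. FCY2 is higher and AMD1 lower with ATP in both strains, and the WT libraries without ATP are spread widely for FCY2, AAH1, APT1, HPT1 and ADO1.

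FCY2 stood at 695, 677 and 725 CPM in NTT1 with ATP, against 486, 500 and 492 CPM in NTT1 without ATP. These groups did not overlap, as for 36.3% of all genes, and replicates of a group lay close together. In WT, FCY2 stood at 700, 646 and 696 CPM with ATP and at 384, 309 and 633 CPM without ATP. These groups did not overlap either, as for 27.1% of all genes, but replicate 3 without ATP was just below the lowest treated library and replicates 1 and 2 were far below it. The means were 699 ± 23.9 CPM in NTT1 with ATP and 492 ± 7.02 CPM in NTT1 without ATP (SD, n = 3 each). In WT they were 680 ± 29.9 CPM with ATP and 442 ± 169 CPM without ATP (SD, n = 3 each). The log2 fold change was 0.51 in NTT1 (SE 0.19, edgeR adjusted p 0.161) and 0.62 in WT (SE 0.19, edgeR adjusted p 0.0574). Neither strain alone passed the threshold by edgeR, while DESeq2 gave the WT difference an adjusted p of 0.0161. Averaged over the strains it was 0.56 (SE 0.14, edgeR adjusted p 0.0137), with higher values in 6 of 6 treated libraries than in any untreated library of the same strain. Of all genes, 14.2% had such separation in both strains, in the same direction.

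The FCY2 values in WT moved with replicate 3 without ATP. Without that library the log2 fold change in WT was 0.97 (SE 0.09, edgeR adjusted p 1.91e-05). That fit was the only 1 of 12 leaving out 1 library in which FCY2 passed in either strain. Over the 12 the WT value ran from 0.42 to 0.97. Without the same library the size in NTT1 stayed at 0.51, with a smaller SE of 0.08 and an edgeR adjusted p of 0.00135. FCY2 and AMD1 made 2 of 10 genes called in NTT1 in that fit, against 16.7% of all genes. The edgeR fit of the 6 NTT1 libraries alone gave an adjusted p of 0.00149, and 2 of 10 genes passed there against 15.6% of all genes. The fit of the 6 WT libraries alone gave FCY2 an adjusted p of 0.215, and 0 of 10 genes passed there against 0.311% of all genes. The averaged call passed under all 17 alternatives run, with log2 fold changes from 0.46 to 0.74.

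AMD1 stood at 103, 113 and 116 CPM in NTT1 with ATP, against 139, 127 and 128 CPM in NTT1 without ATP. In WT it stood at 109, 112 and 101 CPM with ATP, against 146, 148 and 130 CPM without ATP. All 6 treated libraries were below all 6 untreated ones. Groups that did not overlap in either strain, in the same direction, were found for 14.2% of all genes. The means were 110 ± 6.66 CPM in NTT1 with ATP, 131 ± 6.53 CPM in NTT1 without ATP, 107 ± 5.89 CPM in WT with ATP and 141 ± 10.0 CPM in WT without ATP (SD, n = 3 each). AMD1 fell in WT with ATP, at a log2 fold change of -0.39 (SE 0.07, edgeR adjusted p 0.0131). In NTT1 the value was -0.25 (SE 0.07, edgeR adjusted p 0.0867). Averaged over the strains it was -0.32 (SE 0.05, edgeR adjusted p 0.00228).

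The WT call of AMD1 was lost in 3 of 12 fits that left out 1 library, at adjusted p of 0.0531 without treated replicate 1, 0.0637 without treated replicate 3 and 0.0536 without untreated replicate 1. In the fit of the 6 WT libraries alone its adjusted p was 0.1. The averaged value stayed between -0.35 and -0.30 under 17 alternatives and passed in each.

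**Figure D3:**
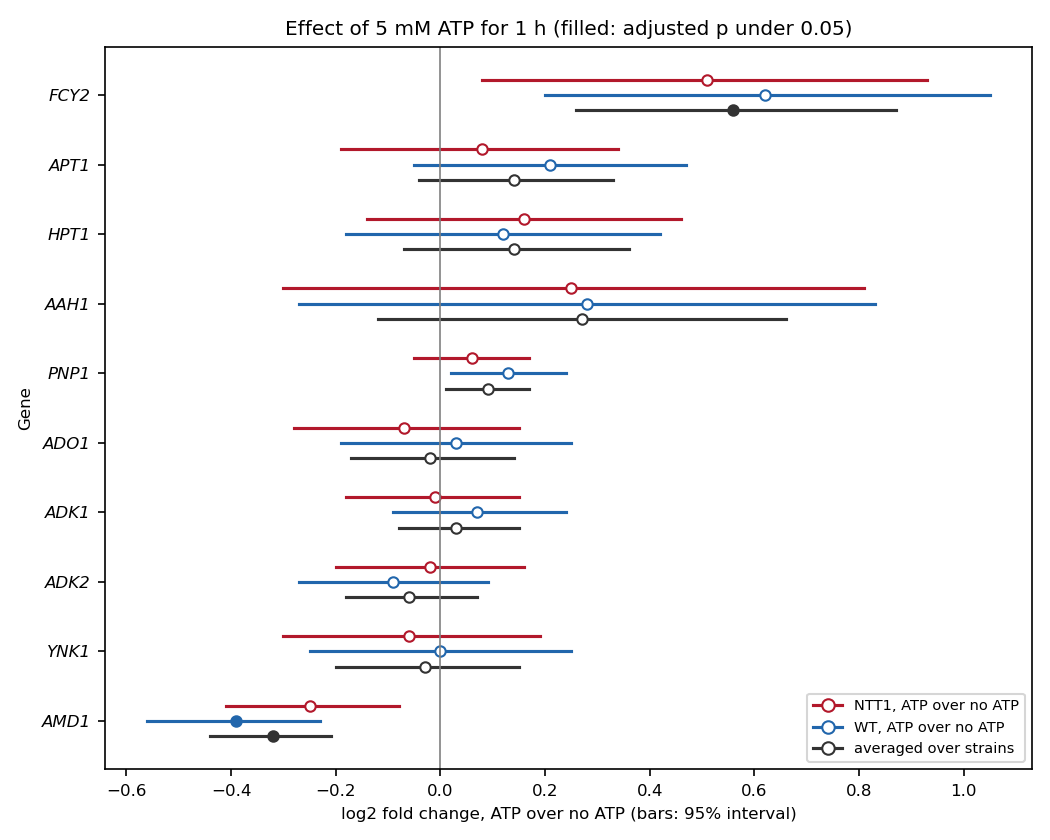
Fitted log2 fold changes of ATP over no ATP with approximate 95% intervals, in NTT1, in WT and averaged over the strains. Filled points passed an adjusted p of 0.05: FCY2 averaged over strains, and AMD1 in WT and averaged over strains.

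Among the enzymes that act on bases and nucleosides, PNP1 had closely grouped replicates. It stood at 80.3, 79.9 and 77.6 CPM in NTT1 with ATP and at 76.7, 76.2 and 75.8 CPM in NTT1 without ATP. In WT it stood at 74.7, 77.3 and 80.2 CPM with ATP and at 74.2, 70.1 and 68.0 CPM without ATP. Treated libraries lay above untreated ones in both strains, by little. The averaged log2 fold change was 0.09 (SE 0.04, edgeR adjusted p 0.0824), which did not pass. With FCY2 and AMD1, PNP1 made 3 of 10 genes whose treated and untreated libraries did not overlap in either strain, in the same direction, against 14.2% of all genes.

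AAH1 was the most variable gene among untreated WT libraries. It stood at 179, 214 and 187 CPM in NTT1 with ATP and at 156, 185 and 146 CPM in NTT1 without ATP. In WT it stood at 173, 196 and 224 CPM with ATP and at 156, 94.6 and 238 CPM without ATP. Groups overlapped in both strains, and the lowest and highest of all 12 values were both untreated WT libraries. Its averaged log2 fold change was 0.27 (95% interval -0.12 to 0.66, edgeR adjusted p 0.301). Without WT replicate 3 lacking ATP the averaged value was 0.46 (SE 0.13, edgeR adjusted p 0.0146), and in WT it was 0.66 (SE 0.19, edgeR adjusted p 0.0213). AAH1 passed only in that fit. This was 1 of 17 alternatives for the average, with values from 0.13 to 0.46. For WT it was 1 of 18, with values from 0.01 to 0.66.

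The genes of both phosphoribosyltransferases were slightly higher on average with ATP and did not pass the test. APT1 averaged 161 ± 11.5 CPM in NTT1 with ATP, 153 ± 12.3 CPM in NTT1 without ATP, 175 ± 15.7 CPM in WT with ATP and 151 ± 25.4 CPM in WT without ATP (SD, n = 3 each). HPT1 averaged 442 ± 51.4 CPM in NTT1 with ATP, 395 ± 44.1 CPM in NTT1 without ATP, 438 ± 5.11 CPM in WT with ATP and 402 ± 77.0 CPM in WT without ATP (SD, n = 3 each). For both genes the groups with and without ATP overlapped in each strain. The averaged log2 fold change was 0.14 for APT1 (95% interval -0.04 to 0.33) and 0.14 for HPT1 (95% interval -0.07 to 0.36). Without WT replicate 3 lacking ATP, APT1 in WT was at 0.33 (SE 0.11, edgeR adjusted p 0.0401) and averaged over strains at 0.20 (edgeR adjusted p 0.0485). APT1 passed only in that fit, 1 of 18 alternatives for WT (0.09 to 0.33) and 1 of 17 for the average (0.08 to 0.20). HPT1 did not pass in that fit, at an averaged 0.20 (edgeR adjusted p 0.106). That fit called 4 of 10 genes in WT and 4 of 10 averaged over the strains, FCY2, AMD1, AAH1 and APT1 in both cases. The corresponding shares of all genes were 33.7% and 39.9%.

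The kinases showed small differences with narrow intervals. ADK1 averaged 891 ± 25.1 CPM in NTT1 with ATP, 899 ± 72.2 CPM in NTT1 without ATP, 937 ± 7.48 CPM in WT with ATP and 889 ± 63.4 CPM in WT without ATP (SD, n = 3 each). Its averaged log2 fold change for ATP was 0.03, with a 95% interval from -0.08 to 0.15. ADK2 averaged between 23.6 and 25.3 CPM in the 4 groups, with an averaged log2 fold change of -0.06 (95% interval -0.18 to 0.07). ADO1 averaged between 764 and 808 CPM, with an averaged log2 fold change of -0.02 (95% interval -0.17 to 0.14). YNK1 averaged between 183 and 192 CPM, with an averaged log2 fold change of -0.03 (95% interval -0.20 to 0.15). The widest of these intervals is that of YNK1, and none of the 4 reaches the averaged log2 fold change of FCY2, 0.56.

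The next question was whether the strain that expresses the transporter differed from WT. Of the 10 genes, 0 passed by edgeR or by DESeq2 with ATP, and 0 had an unadjusted p under 0.05. Of all genes, 0.065% passed by edgeR and 4.52% were under 0.05 unadjusted. Without ATP the counts for the members were again 0 for both tools and 0 unadjusted, against 0.0487% of all genes by edgeR and 9.7% unadjusted. Averaged over treatments they were 0, 0 and 0, against 0.13% and 7.93% of all genes. Of the 10 genes, PNP1 had the smallest p averaged over treatments, at a log2 fold change of 0.07 (SE 0.04, edgeR adjusted p 0.681).

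With ATP, log2 fold changes of NTT1 over WT ran from -0.12 for APT1 to 0.08 for ADK2. FCY2 was at 0.04 (95% interval -0.39 to 0.46) and AMD1 at 0.04 (95% interval -0.13 to 0.20). ADK1 had groups that did not overlap, with 909, 903 and 863 CPM in NTT1 and 930, 945 and 936 CPM in WT, as 16.2% of all genes did. Its log2 fold change was -0.07 (SE 0.07, edgeR adjusted p 0.999).

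Without ATP, the fold changes ran from -0.11 for AMD1 to 0.16 for FCY2. PNP1 had groups that did not overlap, at 0.11 (SE 0.05, edgeR adjusted p 0.524), as 9.4% of all genes did. The value of FCY2 depended on WT replicate 3 lacking ATP. All 3 NTT1 values lay above WT replicates 1 and 2 and below WT replicate 3. Without that replicate FCY2 was higher in NTT1, at 0.51 (SE 0.09, edgeR adjusted p 0.00593), where 9.74% of all genes passed. Averaged over treatments FCY2 was then at 0.27 (SE 0.06, edgeR adjusted p 0.0237), where 5.36% of all genes passed. In the other 11 fits that left out 1 library FCY2 passed in 0 of these strain contrasts.

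**Figure D4:**
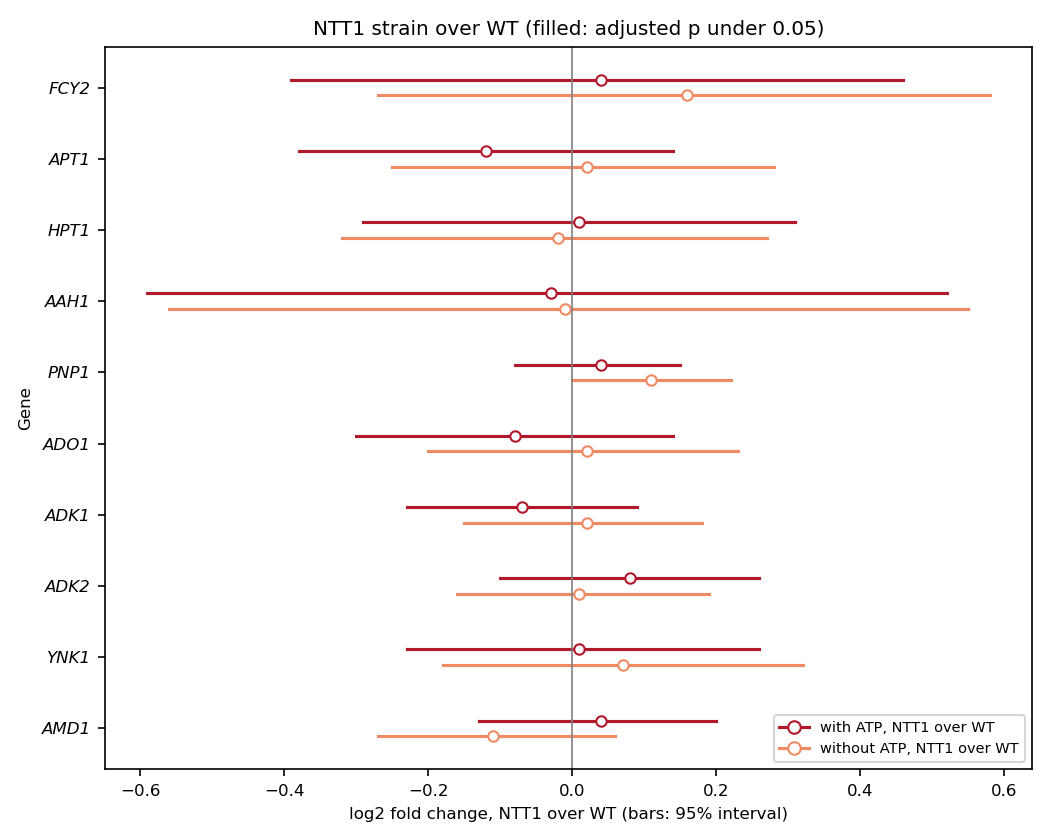
Fitted log2 fold changes of NTT1 over WT with approximate 95% intervals, with and without ATP. All points are open, since 0 of 10 genes passed in either condition, and the intervals are widest for AAH1 and FCY2.

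The interaction term, the response to ATP of NTT1 minus the response of WT, tested whether the strains responded differently. Of the 10 genes 0 passed by edgeR or DESeq2, and 0 had an unadjusted p under 0.05 (5.93% of all genes). Over all genes edgeR called 0% and DESeq2 called 6 genes. The interaction was -0.12 for FCY2 (95% interval -0.72 to 0.48) and 0.15 for AMD1 (95% interval -0.09 to 0.38) on the log2 scale. Without WT replicate 3 lacking ATP, that of FCY2 was -0.47 (SE 0.11, edgeR adjusted p 0.0702). The call of AMD1 in WT and its absence in NTT1 therefore do not show a difference between strains.

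Some genes moved together from library to library within groups. APT1 and AAH1, the enzymes that take adenine to AMP or to hypoxanthine, ranked the 3 replicates in the same order in 4 of 4 groups. HPT1, which uses the hypoxanthine made by Aah1, shared that order with each of them in 3 of 4 groups. Of the 45 pairs among the 10 genes, 1 shared the order in 4 groups, 2 in 3 groups, 2 in 2 groups, 18 in 1 group and 22 in 0 groups. The measure mattered: by correlation within groups, AAH1 with FCY2 (r 0.866) was above HPT1 with AAH1 (0.834) and with APT1 (0.845). Yet AAH1 and FCY2 shared the order in only 1 group. How often pairs among all genes share the order was not tested. Genes of 1 library share its depth and its culture, so these orders are a description.

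The departures were largest in WT without ATP. Measured from the group mean of log2 CPM, replicate 2 was at -0.68 for AAH1, -0.45 for FCY2, -0.33 for HPT1 and -0.26 for APT1. Replicate 3 was at 0.65 for AAH1, 0.58 for FCY2, 0.23 for APT1 and 0.22 for HPT1. YNK1 went the other way, at 0.14 in replicate 2 and -0.25 in replicate 3, as did AMD1, at 0.07 and -0.12. On the first principal component replicate 3 lay nearer to the treated libraries, which ranged from 8.53 to 14.3, than replicates 1 and 2 did.

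**Figure D5:**
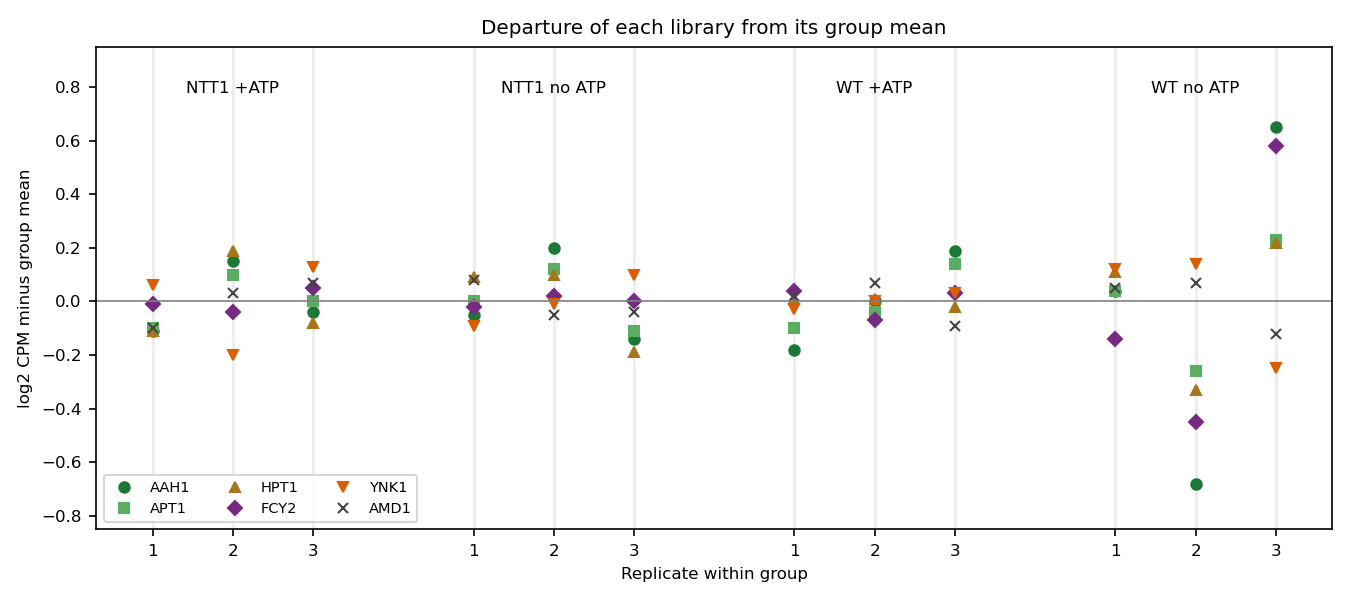
Log2 CPM of 6 genes in each library minus the mean of its group. In WT without ATP, replicate 2 is low and replicate 3 high for AAH1, FCY2, APT1 and HPT1, while YNK1 and AMD1 are opposite in sign.

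By the rule used for likeness, the genes closest to AMD1 over the 12 libraries were MSS11 at a Pearson's r of log2 CPM of 0.976, MAL13 at 0.972 and ROY1 at 0.970. Those closest to PNP1 were TIM21 at 0.924, PPA2 at 0.902 and CCW14 at 0.902. These values include the difference between treated and untreated libraries and carry no test.

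A list of 42 other genes of purine metabolism, transport, ribonucleotide reduction and their regulators was read beside the members, and all 42 were tested. Averaged over strains, 6 of them differed with ATP, 4 higher and 2 lower, against 24.2% of all genes. The median log2 fold change of the list was 0.02 against -0.001 for all genes. In NTT1 0 of 42 passed by edgeR against 4.47% of all genes, 8 had an unadjusted p under 0.05 against 21.7%, and DESeq2 called 3 against 9.52%, namely FCY21, FCY22 and ADE17. In WT 1 of 42 passed by edgeR against 12.7% of all genes, namely SAF1. In WT 7 had an unadjusted p under 0.05 against 30%, and DESeq2 called 3 against 18.2%, namely SAF1, RNR1 and ADE17.

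SAF1 encodes the F-box protein that marks Aah1 for degradation. It averaged 22.7 ± 1.33 CPM in NTT1 with ATP, 34.1 ± 4.44 CPM in NTT1 without ATP, 24.4 ± 2.77 CPM in WT with ATP and 46.2 ± 14.5 CPM in WT without ATP (SD, n = 3 each). It fell in WT, at a log2 fold change of -0.92 (SE 0.20, edgeR adjusted p 0.0202), and averaged over strains, at -0.75 (SE 0.14, edgeR adjusted p 0.00414). In NTT1 the value was -0.58 (SE 0.20, edgeR adjusted p 0.117), which did not pass. The averaged call passed under all 17 alternatives, and the WT call in 7 of 12 fits that left out 1 library. In the fit of the 6 WT libraries alone the adjusted p was 0.116, and in that of the 6 NTT1 libraries alone it was 0.00813. For NTT1 over WT without ATP, SAF1 was at -0.44 (SE 0.19, edgeR adjusted p 0.493). Without WT replicate 3 lacking ATP, SAF1 passed there, at -0.66 (SE 0.13, edgeR adjusted p 0.00988). Averaged over treatments SAF1 was then at -0.38 (SE 0.09, edgeR adjusted p 0.0335). The transcript of its target, AAH1, did not pass the test in any contrast of the full set of libraries. The Aah1 protein, on which Saf1 acts, was not measured here.

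Of the regulators of purine genes, BAS1 rose, at a log2 fold change averaged over strains of 0.33 (SE 0.11, edgeR adjusted p 0.0451), and PHO2 fell, at -0.15 (SE 0.05, edgeR adjusted p 0.0469). BAS1 passed in 1 and PHO2 in 2 of the 12 fits that left out 1 library. On the same scale FCY21, a permease related to FCY2, rose by 0.26 (SE 0.07, edgeR adjusted p 0.0184) and passed in 11 of those 12 fits. RNR1, the large subunit of ribonucleotide reductase, rose by 0.52 (SE 0.13, edgeR adjusted p 0.0176) and passed in 12 of them. FAP7, an adenylate kinase of ribosome assembly, rose by 0.30 (SE 0.09, edgeR adjusted p 0.0275) and passed in 5. In WT alone none of these 5 genes passed by edgeR with all libraries. Without WT replicate 3 lacking ATP, RNR1 passed in WT at 0.91 (edgeR adjusted p 0.000286). BAS1 passed there at 0.46 (edgeR adjusted p 0.00167), FAP7 at 0.46 (0.00865) and PHO2 at -0.21 (0.0223), while FCY21 did not. In WT, each gene that passed there did so in only 1 of the 12 fits that left out 1 library. In that fit RNR1 was also higher in NTT1 than in WT without ATP, at 0.52 (SE 0.12, edgeR adjusted p 0.0256).

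Of the 5 PRPP synthetase genes 0 passed by edgeR or DESeq2 averaged over strains, with 2 at an unadjusted p under 0.05 against 37.4% of all genes. Of 8 genes of de novo IMP synthesis 0 passed by either tool averaged over strains, and 0 had an unadjusted p under 0.05. The average combined values of opposite sign, since 7 of the 8 were above 0 in NTT1 and 7 of the 8 below 0 in WT. Of all 6157 genes, 3031 were above 0 in NTT1 and 3038 below 0 in WT. For NTT1 over WT without ATP, 8 of the 8 were below 0, at a median of -0.21. Of all 6157 genes, 3057 were below 0 in that contrast, at a median of 0.001. There 4 had an unadjusted p under 0.05, against 9.7% of all genes, and 0 passed by either tool. With ATP, 4 of the 8 were above 0 and 4 below. The 8 genes were not tested as a set. Their ATP values in WT, strain values without ATP and interactions share the untreated WT libraries, so these are not separate observations. ADE17, which encodes an enzyme of the last steps to IMP, was at a log2 fold change of 0.24 in NTT1 (SE 0.08, edgeR adjusted p 0.118) and -0.23 in WT (SE 0.08, edgeR adjusted p 0.0891). DESeq2 called it in each strain. Its interaction of 0.47 (SE 0.12, edgeR adjusted p 0.587) did not pass, and 0 of the 8 interactions passed by either tool. Of these interactions 2 had an unadjusted p under 0.05, against 5.93% of all genes.

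ADE12 and ADE13, which make AMP from IMP and so run against Amd1, were singled out after their values were seen. With ATP the log2 fold change of ADE12 was 0.10 in NTT1 and -0.08 in WT, and averaged over strains it was 0.01 (95% interval -0.08 to 0.10). That of ADE13 was 0.09 in NTT1 (edgeR adjusted p 0.548) and -0.20 in WT (edgeR adjusted p 0.135), and averaged over strains it was -0.05 (95% interval -0.18 to 0.07). Treated and untreated libraries of ADE13 did not overlap in WT, as for 27.1% of all genes. Those of ADE12 overlapped in neither strain, being higher with ATP in NTT1 and lower in WT. Such groups did not overlap for 36.3% of all genes in NTT1 and 27.1% in WT. Separation in opposite directions was not counted over all genes. Neither gene passed for ATP in either strain or on average. The interaction did not pass either, at 0.18 for ADE12 (SE 0.08, edgeR adjusted p 0.829) and 0.29 for ADE13 (SE 0.12, edgeR adjusted p 0.813). Without ATP, NTT1 over WT was at -0.18 for ADE12 (SE 0.06, edgeR adjusted p 0.35). For ADE13 it was at -0.26 (SE 0.08, edgeR adjusted p 0.357). DESeq2 called ADE12 in that contrast.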

How the data were processed

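RNA was sequenced from 12 yeast cultures, and the deposited table holds raw counts per gene as the authors made them, with 1 column per library. The submitters' processing notes name HISAT2 2.0.5, featureCounts 1.5.0, DESeq2 1.20.0 and genome build R64, with no role given. Strand use and annotation are not given in the sources used here. Gene names, coordinates and sequences come from RefSeq R64, whose locus tags matched 6023 of 7127 identifiers. Libraries were grouped by title.

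Counts were tested with edgeR 4.0.16 in R 4.3.3 (filterByExpr, TMM, quasi-likelihood F-test, 1 mean per group, 7 contrasts), with adjustment over 6157 genes. The fit was checked on simulated data in which each gene had the same spread in all groups. That check does not cover the wider spread of WT without ATP. Standard errors and 95% intervals were derived from the F statistic and are approximate. Log2 CPM used a prior count of 2. P-values describe the spread between these cultures. All 10 members are named, along with the listed pathway genes past the threshold and, for 2 members, the 3 genes of highest correlation. Alternatives were RLE and upper-quartile factors, no count filter, DESeq2 1.42.0, a replicate block, leaving out each library, and fits of the compared groups alone. The members and lists were chosen with earlier results of these data known.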

Additional observations from a re-analysis of the deposited data

How the results depend on the processing

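Counts of members past the threshold moved with a few choices. For ATP in NTT1 the count was 0 of 10 and became 1 with upper-quartile factors, 1 with the DESeq2 Wald test and 2 when NTT1 libraries were fitted by themselves. It ran from 0 to 2 when 1 library was left out. For ATP in WT the count was 1 and became 2 with DESeq2, 2 with the replicate block and 0 when WT libraries were fitted by themselves. It ran from 0 to 4 when 1 library was left out. Averaged over strains the count was 2 and ran from 2 to 4. For NTT1 against WT it ran from 0 to 1 without ATP and from 0 to 1 averaged over treatments. For NTT1 against WT with ATP and for the interaction it was 0 in each fit run. The highest value of each of these ranges came from the fit without WT replicate 3 lacking ATP. The cause was not tested. Over all genes, ATP in NTT1 gave 275 calls, against 586 with DESeq2 and 950 in the fit of NTT1 libraries alone. ATP in WT gave 784, against 19 in the fit of WT libraries alone. NTT1 against WT gave 4, 3 and 8 calls with ATP, without ATP and averaged, against 12, 41 and 45 with DESeq2. The averaged count was 5 with the replicate block, and the count without ATP was 0 in the fit of untreated libraries alone. When 1 library was left out, calls ran from 69 to 1030 for ATP in NTT1, from 89 to 2086 for ATP in WT, from 1024 to 2469 averaged over strains and from 0 to 106 for the interaction. For NTT1 against WT they ran from 1 to 6 with ATP, from 2 to 602 without ATP and from 3 to 331 averaged.

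Same-numbered replicates did not deviate together, with correlations from -0.44 to 0.311, so the numbers were not taken as pairs. With the replicate block FCY2 in WT passed, at 0.66 (edgeR adjusted p 0.0476), and 671 genes passed for ATP in WT against 784 without it. Averages over groups and the interaction use all libraries, so no fit of fewer groups was run for them. No member's called value changed sign. What passed depended on a gene's own error: averaged over strains, 0.27 for AAH1 (SE 0.18) did not pass, whereas 0.26 for FCY21 (SE 0.07) did.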
